A study of Homo sapiens with 3 samples.

Results

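The genes described here encode adhesion molecules that endothelial cells use to catch leukocytes, together with the sialomucins that coat the same surface. They were taken by name: ICAM1, ICAM2, VCAM1, SELE, SELP, PECAM1, CD34, PODXL, EMCN and CD99. Of these 10 genes, 9 were analysed among the 18345 genes of each library, and CD99, a glycoprotein of cell junctions, was not analysed here. The genes were chosen with their values in view, because SELE was high, ICAM2 ran against most endothelial genes, and PECAM1 and CD34 encode antigens of the sort. The levels below are therefore a description.

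RNA-seq was carried out on derivatives of the human embryonic stem cell line H1, which is an established line. Its cells had first received 40 ng/ml of activin A with 50 ng/ml of BMP4 over 2 days, then 40 ng/ml of VEGF with 50 ng/ml of bFGF over 3 days, and are labelled as collected on day 4. All were CD31+CD34+ cells, called HEPs in the labels, and differed in surface CD105, which was negative, low or high (CD105neg, CD105low and CD105high). Each population had 1 library from this 1 cell line, so no value below has a replicate error and every comparison is one between libraries.

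A leukocyte is first slowed by selectins, lectins that bind sialylated and fucosylated sugars. It is then arrested by integrins that bind immunoglobulin-like molecules such as ICAM1, ICAM2 and VCAM1, and it crosses the vessel wall through junctions that hold PECAM1 and CD99. SELE, VCAM1 and ICAM1 are known as genes that inflammatory cytokines switch on through NF-kB, whereas SELP is stored in Weibel-Palade bodies and ICAM2 is made without such a stimulus. CD34, PODXL and EMCN are heavily sialylated mucins of the vessel lining, and CD34 is also the classical surface marker of blood progenitors.

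Values were treated as FPKM, a level per length of transcript, although the deposited tables do not name the unit. Log2 fold changes were taken after adding 1 to each value, which understates the change of low genes. On that scale a difference of 1.5-fold or more was called higher or lower. Genes that reached 1 FPKM in any library are called measured. Libraries summed to between 265618 and 289229 FPKM. The files hold no read counts, so the depth is unknown and no counting interval can be given. ENG (ENSG00000106991.13), the gene of CD105, had 2.12, 8.56 and 13.8 FPKM in CD105neg, CD105low and CD105high, the order of the sort.

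The cells carried endothelial transcripts in every library. All 13 endothelial markers, of which EMCN is one of the genes described here, were measured, and they summed to 1469, 2114 and 2248 FPKM in CD105neg, CD105low and CD105high. In CD105high 11 of the 13 were higher than in CD105neg and none was lower, beside 5.65% higher and 6.88% lower over all 11343 measured genes. Of 12 mesenchymal and mural markers 9 were measured, with sums over the list of 487, 460.3 and 387 FPKM, and 5 of the 9 were lower in CD105high than in CD105neg and none higher. Of 13 leukocyte markers 7 were measured, with sums of 69.1, 58.9 and 47.2 FPKM, and 2 of the 7 were lower and none higher. LAPTM5, a lysosomal membrane protein gene of blood cells, made up most of that sum, at 51.6, 44.05 and 35.5 FPKM, while PTPRC, which encodes CD45, stood at 0.0038 FPKM in CD105neg and was listed at 0 in the other libraries, as MPO was in all 3. A value of 0 in these tables need not mean absence, since IRAK4, a kinase gene that most cells use, was also listed at 0 in every library. Erythroid markers, 8 of 14 measured, summed to 71.8, 24.4 and 12.3 FPKM, and all 8 were lower in CD105high than in CD105neg. In bulk RNA, fewer cells of a type and less RNA per cell cannot be told apart.

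SELE, VCAM1 and SELP bracket the set: the most abundant member in CD105high, the member near 0, and the other selectin of the set. SELP lies near SELE and stood lower in CD105high than in CD105neg, though short of the 1.5-fold bound. The 250 bases before the start of each gene are shown for that contrast, from RefSeq on GRCh38.p14, 5′ to 3′ on the gene's strand. Capitals mark matches to the NF-kB consensus.

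SELE, chr1:169734080-169734329, minus strand: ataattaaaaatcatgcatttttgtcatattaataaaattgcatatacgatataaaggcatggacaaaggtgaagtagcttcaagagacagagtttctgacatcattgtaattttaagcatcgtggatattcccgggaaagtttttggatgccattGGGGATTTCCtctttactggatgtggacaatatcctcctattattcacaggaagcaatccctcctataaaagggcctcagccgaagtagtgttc
VCAM1, chr1:100719492-100719741, plus strand: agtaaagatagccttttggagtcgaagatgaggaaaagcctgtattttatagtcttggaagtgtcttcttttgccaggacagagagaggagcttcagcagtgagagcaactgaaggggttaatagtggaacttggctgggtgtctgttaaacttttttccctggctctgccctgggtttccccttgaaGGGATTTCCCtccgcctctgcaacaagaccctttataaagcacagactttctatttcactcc
SELP, chr1:169630125-169630374, minus strand: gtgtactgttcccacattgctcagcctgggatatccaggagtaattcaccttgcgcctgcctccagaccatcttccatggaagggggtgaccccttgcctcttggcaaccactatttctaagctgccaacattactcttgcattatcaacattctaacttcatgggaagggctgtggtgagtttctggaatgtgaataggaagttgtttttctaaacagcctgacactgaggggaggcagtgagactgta

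Promoter sequence was matched for 6 of the 9 analysed genes (VCAM1, SELP, SELE, CD34, EMCN and ICAM1). The NF-kB consensus, searched on both strands, occurred in 2 of the 6, against 9.57% of 27305 RefSeq promoters of the same length. Only full matches were counted, so a site that departs from the consensus at any base would be missed. The match in SELE covered the bases from 94 to 85 before the start, and that in VCAM1 the bases from 62 to 53. The ETS cores CCGGAA and AGGAAG occurred in 4 of the 6, namely SELP, SELE, EMCN and ICAM1, against 39.6% of all promoters. The GATA cores AGATAA and TGATAA occurred in SELP and EMCN, against 14.9% of all promoters. The matches describe letters in a window. The expressed SELE and the nearly silent VCAM1 both held the NF-kB consensus, and the oppositely ordered SELP and EMCN both held ETS and GATA cores. The order of SELP rests on small differences, with a log2 fold change of -0.55 for CD105high against CD105neg, short of the 1.5-fold bound.

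**Figure D1:**
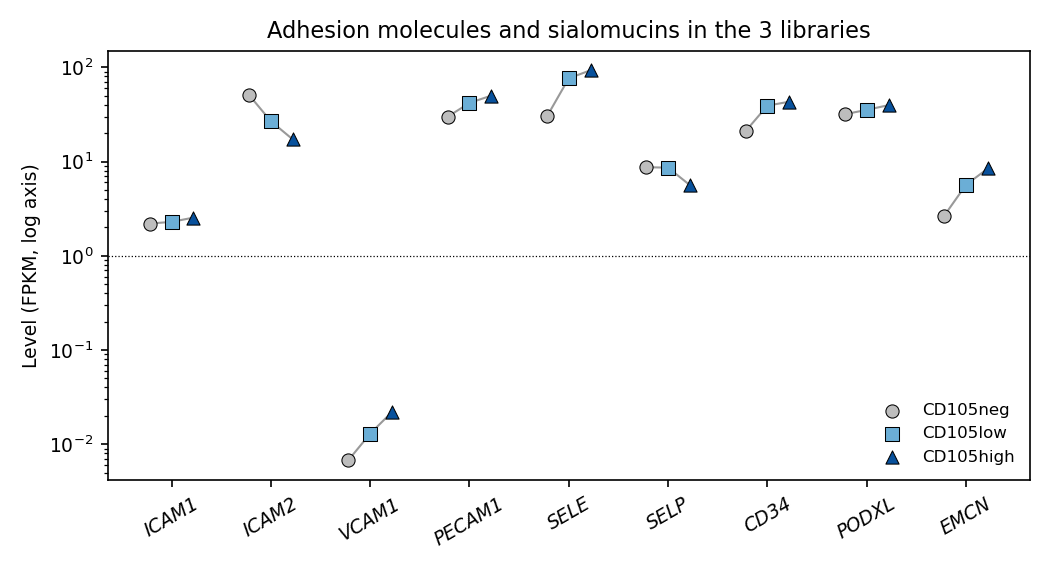
Level of each analysed gene in the 3 libraries, in FPKM on a log axis, with 1 point per library and a dotted line at 1 FPKM. Most genes step upward from CD105neg to CD105high, ICAM2 steps down from 50.9 to 17.2 FPKM, and VCAM1 lies between 0.0068 and 0.022 FPKM.

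The selectins parted. SELE (ENSG00000007908.15), which encodes E-selectin of activated endothelium, stood at 30.1 FPKM in CD105neg, 76.5 in CD105low and 93.1 in CD105high. Its level in CD105low was much nearer to CD105high than to CD105neg, with a log2 fold change of 1.32 between CD105neg and CD105low and of 0.28 between CD105low and CD105high. For CD105high against CD105neg the log2 fold change was 1.60, and 66 of the 11343 measured genes had a higher one. It was the third most abundant of the 9 genes in CD105neg and the most abundant in CD105low and CD105high.

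SELP (ENSG00000174175.16), which encodes the P-selectin of endothelium and platelets, stood at 8.71 FPKM in CD105neg, 8.61 in CD105low and 5.62 in CD105high. CD105neg and CD105low were nearly alike, and the sign of their small difference changed when each library was scaled to the same sum. CD105high was the low library, at a log2 fold change of -0.55 against CD105neg, just short of the 1.5-fold bound, and at -0.62 with a pseudocount of 0.1, past it. The ratio of SELE to SELP was 3.45 in CD105neg, 8.88 in CD105low and 16.6 in CD105high. SELE and SELP lie close together on chromosome 1 in GENCODE release 29. C1orf112, which overlaps SELE on the opposite strand, stood at 26.7, 27.9 and 24.3 FPKM. It was less than 1.5-fold apart between CD105high and CD105neg, and was ordered neither as SELE nor as SELP. AL021940.1, which shares 1.61% of the sampled SELE sequence, was not analysed here.

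The immunoglobulin-like molecules covered the widest span of levels. ICAM2 (ENSG00000108622.10) encodes a ligand of leukocyte beta-2 integrins that resting endothelium, platelets and leukocytes carry. It stood at 50.9 FPKM in CD105neg, 26.8 in CD105low and 17.2 in CD105high. CD105neg was the high library, and both steps went down, with a log2 fold change of -0.90 from CD105neg to CD105low and of -0.61 from there to CD105high. Over the whole range the log2 fold change was -1.51, and 27 of the 11343 measured genes had a lower one. ICAM2 was the most abundant of the 9 genes in CD105neg and the fifth in CD105high.

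Some of the sequence of ICAM2 is not its own. PRR29 overlaps ICAM2 on the opposite strand, and 35.7% of the 50-base pieces sampled from ICAM2 transcripts also occur in PRR29. These pieces come from 16 annotated ICAM2 transcripts together, so this is not the share of any single mRNA. The library kit does not mark strand, so strand cannot tell which gene reads of that stretch came from. How such reads were divided between the genes was not given in the sources used here. PRR29 stood at 1.57, 2.73 and 2.10 FPKM, below ICAM2 in every library and in another order.

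Platelets and leukocytes also carry ICAM2, and platelets SELP, so their markers were set beside these genes. Of 11 megakaryocyte and platelet markers 4 were measured, and the list summed to 13.8 FPKM in CD105neg, 8.64 in CD105low and 5.02 in CD105high. Of the 4, 3 were lower in CD105high than in CD105neg and none higher, beside 6.88% and 5.65% of all measured genes. ITGA2B, the CD41 chain of megakaryocytes, stood at 7.84, 4.87 and 2.28 FPKM. The platelet chemokine gene PPBP and the platelet tubulin gene TUBB1 were listed at 0 in CD105neg and CD105low. The leukocyte list, with the sums given above, was also highest in CD105neg and lowest in CD105high. The part of these cells in the ICAM2 and SELP values was not tested.

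ICAM1 (ENSG00000090339.8), the inducible ligand of the same integrins, was low and nearly level, at 2.20 FPKM in CD105neg, 2.29 in CD105low and 2.54 in CD105high (log2 fold change 0.15 for CD105high against CD105neg). It shares 13.0% of its sampled sequence with AC011511.5, an overlapping gene that was not analysed here. ICAM2 exceeded ICAM1 by 23.2 times in CD105neg, 11.7 times in CD105low and 6.77 times in CD105high. The constitutive ICAM was thus the more abundant throughout, by a margin that shrank with CD105.

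VCAM1 (ENSG00000162692.10), the endothelial ligand of integrins with the ITGA4 chain, stood at 0.0068 FPKM in CD105neg, 0.013 in CD105low and 0.022 in CD105high. These levels exceeded those of only 1.49%, 3.41% and 5.48% of the genes with a value above 0 in the same library. VCAM1 was therefore not measured by the rule used here, and no fold is given for it.

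PECAM1 (ENSG00000261371.5), the junctional molecule CD31 that binds itself on the neighbouring cell and on the leukocyte, stood at 29.9 FPKM in CD105neg, 41.9 in CD105low and 50.1 in CD105high. Both steps went up, the first by a log2 fold change of 0.47 and the second by 0.25, and the log2 fold change over the whole range was 0.73. All of the cells were sorted as CD31+, and the transcript was present in every library. PECAM1 lies near ICAM2 on chromosome 17, with 2 protein-coding genes between them, ERN1 at 3.81, 3.59 and 3.57 FPKM and TEX2 at 6.96, 7.44 and 6.86 FPKM. Neither stood 1.5-fold apart between any pair of libraries. The ratio of PECAM1 to ICAM2 was 0.586 in CD105neg, 1.56 in CD105low and 2.91 in CD105high, so that the more abundant of these neighbours changed between CD105neg and CD105low.

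Among the sialomucins, EMCN differed most and PODXL least between CD105high and CD105neg. EMCN (ENSG00000164035.9) encodes endomucin of capillary and venous endothelium, and stood at 2.66 FPKM in CD105neg, 5.66 in CD105low and 8.44 in CD105high. Both steps went up, with a log2 fold change of 1.37 for CD105high against CD105neg. For CD105high against CD105low EMCN had the largest increase of the 8 measured genes, 0.50, short of the bound. In that comparison ICAM2 (-0.61) and SELP (-0.54) differed more, in the downward direction. CD34 (ENSG00000174059.16) stood at 21.0, 39.2 and 43.2 FPKM. Nearly all of its difference lay between CD105neg and CD105low (log2 fold change 0.87), with 0.14 between CD105low and CD105high. Because every cell was sorted as CD34+, this is a difference in level among positive populations. PODXL (ENSG00000128567.16), podocalyxin, which is also abundant on pluripotent stem cells, stood at 31.8, 35.3 and 39.7 FPKM, less than 1.5-fold apart (log2 fold change 0.31 for CD105high against CD105neg). The ratio of PODXL to EMCN was 11.98, 6.25 and 4.70, and that of PODXL to CD34 was 1.52, 0.902 and 0.919.

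Pluripotent stem cells are the other known setting of PODXL. Of 10 pluripotency and epithelial markers 7 were analysed, all of them measured, and they summed to 107, 97.1 and 86.4 FPKM. Of the 7, 1 (CDH1) was lower in CD105high than in CD105neg and none higher, beside 6.88% and 5.65% of all measured genes. The part of such cells in the PODXL values was not tested.

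**Figure D2:**
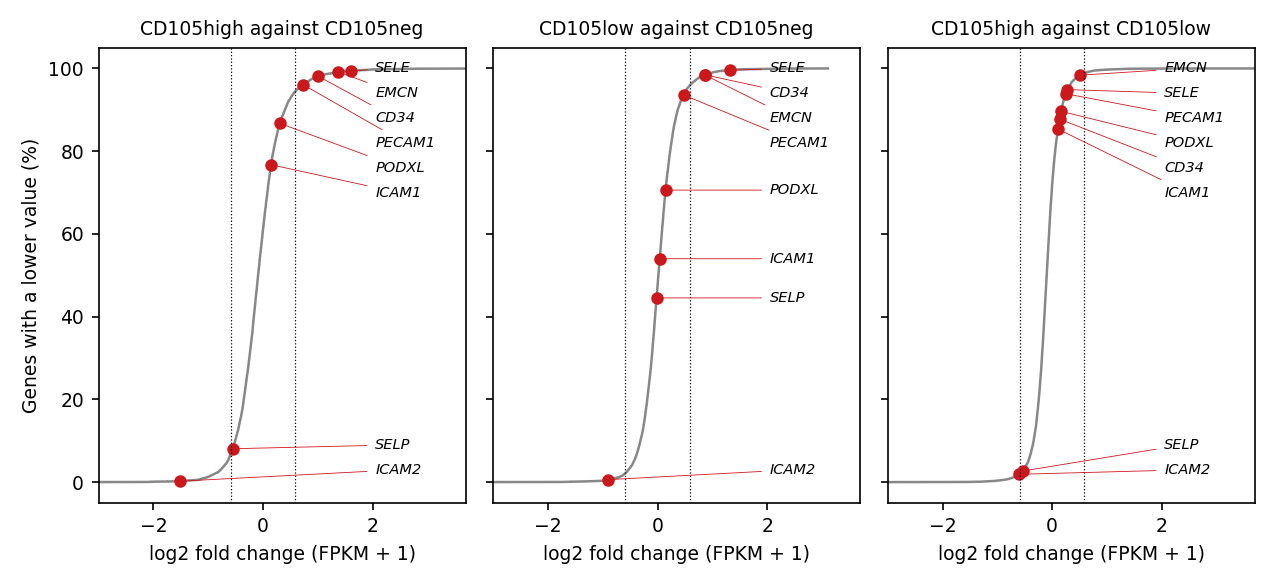
Log2 fold change of the 8 measured genes in each comparison (red points) on the cumulative curve of all 11343 measured genes (grey line), with dotted lines at 1.5-fold. SELE, EMCN and CD34 lie near the top of the curve against CD105neg, ICAM2 lies near the bottom in every comparison, and ICAM1 lies close to the middle for CD105low against CD105neg.

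Counted over the measured genes, 4 of 8 were at least 1.5-fold higher in CD105high than in CD105neg (SELE, EMCN, CD34 and PECAM1) and 1 was lower (ICAM2). Over all measured genes 5.65% were higher and 6.88% lower, and since the genes were chosen on these values nothing is read from the contrast. Their median log2 fold change was 0.52, against -0.09 for all measured genes. For CD105low against CD105neg, a comparison that uses the same CD105neg library, 3 of 8 were higher (SELE, CD34 and EMCN) and ICAM2 was lower, with 4.13% and 2.18% of all measured genes higher and lower. For CD105high against CD105low none was higher and ICAM2 was lower, with 1.18% and 2.19% of all measured genes. Once that last comparison was centred on its median gene, EMCN was past the bound at 0.61 and ICAM2 was short of it at -0.51, so these calls rest on the scale. Centring moved the split over all measured genes from 641 higher and 780 lower to 856 and 493 for CD105high against CD105neg, and from 134 and 248 to 209 and 151 for CD105high against CD105low. Scaling every library to the same sum moved the median of all measured genes by 0.11 for CD105high against CD105neg. It gave 1091 higher and 731 lower there, and 279 and 278 for CD105high against CD105low. That scaling raised every value before 1 was added, so the added 1 weighed less and low genes passed the bound more easily. Its counts therefore mix library scale with a smaller pseudocount.

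By order, 6 of the 8 measured genes had their lowest level in CD105neg and their highest in CD105high (SELE, EMCN, CD34, PECAM1, PODXL and ICAM1), an order shown by 17.6% of all measured genes. The reverse order held for ICAM2 and SELP, and for 36.4% of all measured genes. SELP left that order when each library was scaled to the same sum.

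**Figure D3:**
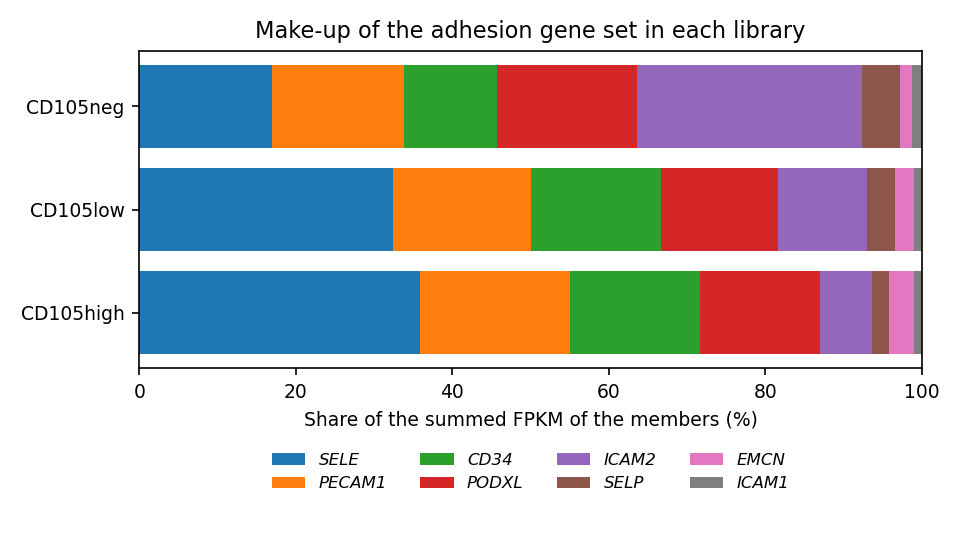
Share of each gene in the summed FPKM of the 9 analysed genes, in percent, with 1 bar per library. VCAM1 is too low to be drawn. The share of SELE widens from 17.0% to 35.8% and that of ICAM2 narrows from 28.7% to 6.62%.

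The summed level of the 9 genes was 177 FPKM in CD105neg, 236 in CD105low and 260 in CD105high. Within that sum, SELE made up 17.0%, 32.4% and 35.8%, and ICAM2 28.7%, 11.3% and 6.62%. PECAM1 made up 16.9%, 17.7% and 19.3%, CD34 11.8%, 16.6% and 16.6%, and PODXL 17.9%, 15.0% and 15.3%. ICAM2 thus had the largest share in CD105neg, with PODXL, SELE and PECAM1 close together behind it. SELE had the largest share in CD105low and CD105high.

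Set against CDH5, the cadherin of endothelial junctions, several of these genes took another order. This ratio was chosen after the values were seen. CDH5 itself stood at 48.0, 79.6 and 94.1 FPKM. Per unit of CDH5, PECAM1 was nearly level at 0.622, 0.526 and 0.532, and so was CD34 at 0.437, 0.492 and 0.459. SELE stood at 0.627, 0.960 and 0.990 and EMCN at 0.055, 0.071 and 0.090, lowest in CD105neg. PODXL (0.663, 0.444 and 0.422) and ICAM1 (0.046, 0.029 and 0.027) were highest in CD105neg, as were SELP (0.182, 0.108 and 0.060) and ICAM2 (1.06, 0.337 and 0.183). On this scale the ratio in CD105neg was 5.80 times that in CD105high for ICAM2 and 3.04 times for SELP. The differences of PECAM1 and CD34 were thus of about the size of that of CDH5, while those of SELE and EMCN were larger.

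For 2 genes the most similar profiles were sought among 5893 others that reached 10 FPKM in any library, by the distance between their 3 centred log2 values. Those most like ICAM2 were ODC1, the ornithine decarboxylase of polyamine synthesis (45.0, 24.3 and 16.4 FPKM, distance 0.076), TMEM14B (57.2, 26.4 and 19.3 FPKM, 0.15) and OTUD6B (14.5, 8.21 and 5.30 FPKM, 0.15). Those most like SELE were TPD52L1 (7.93, 20.5 and 26.4 FPKM, 0.049), HID1 (6.31, 17.3 and 22.3 FPKM, 0.057) and PDE2A, a cyclic nucleotide phosphodiesterase (5.27, 13.7 and 17.7 FPKM, 0.066). With 3 libraries many genes can share a profile.

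Related genes were examined through 8 lists of 119 different genes, of which 92 were measured. Over all measured genes, 5.65% were higher in CD105high than in CD105neg and 6.88% lower, the shares to set beside each count. Centring on the median gene adds 0.10 to each list median for CD105high against CD105neg, which turns the sign of the medians of the sugar-building and the cytokine-induced list below. In the list of other immunoglobulin-like and junction molecules, 3 of 12 measured genes were higher in CD105high than in CD105neg and 1 was lower, with a median log2 fold change of 0.25. The higher ones were CDH5 (0.96), ESAM, an endothelial junction molecule (25.0, 36.1 and 42.9 FPKM, 0.76), and JAM3, a junctional adhesion molecule (49.9, 67.0 and 77.1 FPKM, 0.62). The lower one was ICAM5, an ICAM best known from neurons, at 2.09, 1.44 and 0.746 FPKM. The relative of CD99, CD99L2, stood at 3.77, 4.09 and 5.05 FPKM. MADCAM1, the mucosal addressin, did not reach 1 FPKM.

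Of 8 measured genes in the list of other sialomucins and mucin-like proteins, 1 was higher and 1 lower (median -0.20). The higher one was THBD, thrombomodulin, which limits clotting on endothelium, at 3.33, 8.79 and 14.7 FPKM (1.86). The lower one was SPN, the leukocyte sialoprotein CD43, at 3.42, 2.55 and 1.19 FPKM (-1.02). CD164, a sialomucin of progenitors and many other cells, stood at 49.9, 40.4 and 34.6 FPKM (-0.52), short of the bound. PODXL2, or endoglycan, which belongs to one family with CD34 and PODXL, stood at 1.02, 1.27 and 0.727 FPKM.

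Partners on the leukocyte side were mostly low. Of 7 measured counter-receptor genes 1 was higher and none lower (median 0.02). The higher one was ITGA9, an integrin chain that also binds VCAM1, at 39.8, 65.0 and 77.6 FPKM (0.94), while ITGA4 stood at 4.24, 4.10 and 3.52 FPKM and their common partner ITGB1 at 345, 460 and 370 FPKM. ITGAL, the chain that binds ICAM1 and ICAM2, stood at 0.23, 0.18 and 0.11 FPKM, its partner ITGB2 at 1.88, 1.27 and 1.21 FPKM, and SELPLG, the main ligand of P-selectin, at 0.62, 0.68 and 0.78 FPKM.

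Among enzymes that build the sugars selectins bind, 1 of 13 measured genes was higher and 1 lower (median -0.06). GCNT1, which branches core O-glycans, stood at 1.55, 3.07 and 7.08 FPKM (1.66), and CHST2, a sulfotransferase of selectin ligands, at 5.44, 3.95 and 3.18 FPKM (-0.62). GALNT1, which adds the first sugar of O-glycans, stood at 118, 95.2 and 90.9 FPKM. FUT7, the fucosyltransferase of leukocytes that completes such ligands, was listed at 0 in all 3 libraries.

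Of adaptors that tie these receptors to cortical actin, none of 14 measured genes was past the 1.5-fold bound (median 0.09). Among the linkers to actin, EZR, MSN and RDX had their lowest level in CD105neg and their highest in CD105high. EZR stood at 40.8, 52.9 and 53.9 FPKM (0.39), MSN at 238, 279 and 301 FPKM (0.34) and RDX at 61.3, 77.0 and 86.3 FPKM (0.49). Over all measured genes 17.6% showed that order. Of the other adaptors some shared it and some did not, such as SLC9A3R1 at 8.74, 7.65 and 7.73 FPKM and FLNA at 161, 146 and 144 FPKM. With centring or with scaling to the same sum, 1 of the 14 was higher.

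The list of Weibel-Palade body genes, the store of P-selectin, had 4 of 12 measured genes higher, 1 lower and 7 neither (median 0.30). Over all measured genes 5.65% were higher and 6.88% lower. SELP itself, at -0.55, was short of the bound. VWF, the main cargo, stood at 4.89, 10.9 and 16.5 FPKM (1.57), EDN1, endothelin-1, at 1.69, 8.77 and 23.5 FPKM (3.18), PLAT, a plasminogen activator, at 4.92, 6.89 and 9.60 FPKM (0.84), and RAB3D, a granule GTPase, at 4.39, 6.33 and 7.40 FPKM (0.64). UNC13D, a priming factor of granule release, was the lower one, at 6.18, 3.56 and 3.10 FPKM (-0.81). When 5 was added to each value instead of 1, the list had 2 genes higher and none lower.

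Of 10 measured genes that cytokines induce in endothelium, other than those described here, 1 was higher and 1 lower (median -0.02), beside 5.65% and 6.88% of all measured genes. PTGS2, an inducible prostaglandin synthase, stood at 1.09, 2.20 and 3.75 FPKM (1.18), IER3 at 3.25, 3.61 and 5.38 FPKM (0.58), just short of the bound, and SOD2, the mitochondrial superoxide dismutase, at 17.9, 11.8 and 8.81 FPKM (-0.95). With centring, with scaling to the same sum or with a pseudocount of 0.1, 3 genes of the list were higher. CCL2, TNFAIP3 and NFKBIA stood at 1.26, 1.33 and 0.827 FPKM, at 1.86, 2.27 and 3.10 FPKM, and at 34.2, 28.4 and 28.5 FPKM. CSF2 and CXCL10 were listed at 0 in all 3 libraries, and CXCL8 stood at 0.031, 0.16 and 0.92 FPKM.

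Of 17 measured genes of cytokine receptors and the NF-kB signal chain, none was higher and 1 was lower (median 0.02). The lower one was the kinase gene IRAK1, at 45.7, 14.7 and 18.2 FPKM (-1.28), whose lowest level was in CD105low. With each library scaled to the same sum, and with a pseudocount of 0.1, 1 gene of this list was higher and 2 were lower. IL1R1, an interleukin-1 receptor, stood at 2.26, 3.72 and 3.45 FPKM (0.45), MYD88, its adaptor, at 1.55, 1.30 and 0.808 FPKM (-0.50), and the tumour necrosis factor receptor TNFRSF1A at 10.8, 12.3 and 12.2 FPKM (0.17).

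**Figure D4:**
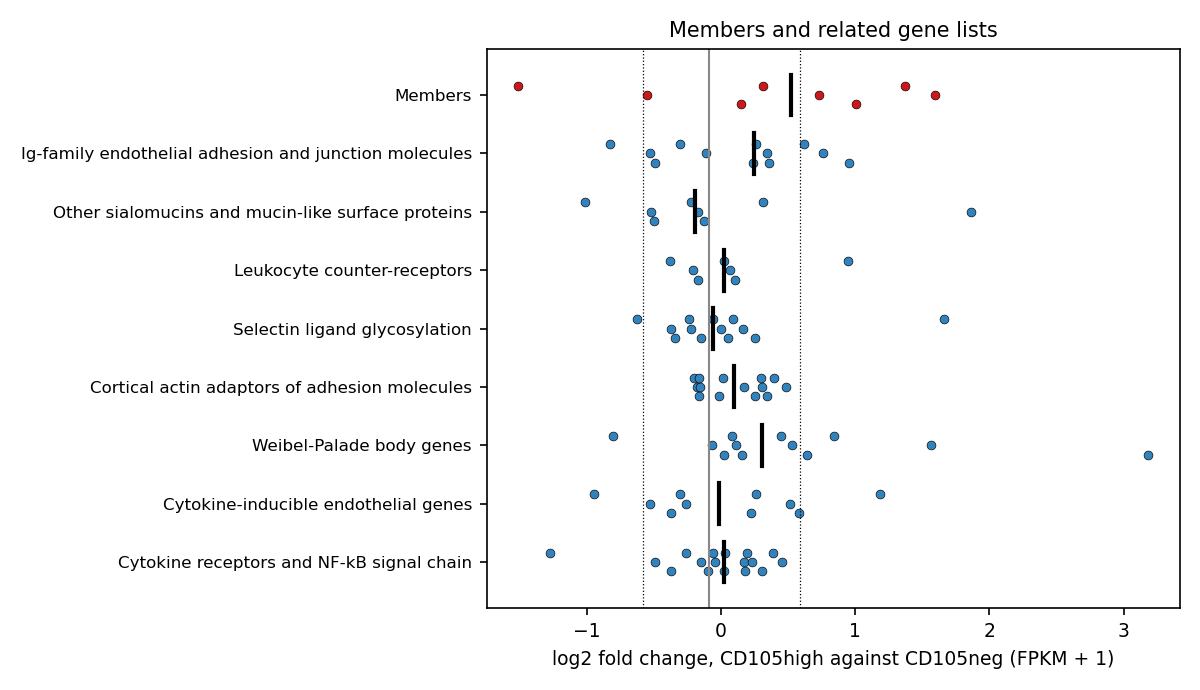
Log2 fold change of CD105high against CD105neg for the 8 measured genes (red) and for the measured genes of each related list (blue), 1 point per gene. Thick bars mark medians, dotted lines 1.5-fold, and the grey line the median of all measured genes at -0.09. The described genes span from ICAM2 at -1.51 to SELE at 1.60, whereas the actin adaptors stay between the dotted lines.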

How the data were processed

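Libraries came from 2 ug of total RNA and an unstranded TruSeq RNA kit, per the labels' protocols. Tools listed in the submitters' processing notes are RSEM, Bowtie and BWA, and the build is hg19, with no role or version. Annotation and filters were not given in the sources used here. Each deposited table holds 1 value per gene without a unit, and these deposited values were treated as FPKM. If they are TPM instead, each library differs by 1 constant factor. The group of each library was taken from its own labels, since the value column of CD105neg is headed as CD105 positive. Rows were used on the deposited scale with a pseudocount of 1, a floor of 1 FPKM and a 1.5-fold bound in Python 3.11.15 (pandas 2.3.3). With 1 library per group no test was possible and none was made. Calculations were tested on simulated data.

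Shared sequence was taken from 50-base pieces, sampled every 40 bases of GENCODE release 29 transcripts, that also occur in another gene on either strand. Because that annotation and RefSeq are on another build than the deposited values, coordinates are given only for the promoter sequences.

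The genes and related lists were chosen with earlier results of these data known. Genes named in the text are the members, ENG, the 3 measured genes of each related list that differed most between CD105high and CD105neg, the known ligands, partners and storage proteins of members, and the 3 nearest profiles of ICAM2 and SELE; VCAM1 was too low for that. Overlapping and neighbouring genes, CDH5 as a divisor, marker genes and the remaining genes named among the lists (JAM3, MADCAM1, FUT7, RAB3D, UNC13D, CCL2, TNFAIP3, NFKBIA, CSF2, CXCL10, CXCL8 and TNFRSF1A) were chosen after their values were seen. SLC9A3R1 and FLNA were also named after their values were seen. Protein sequences were not used here. Alternatives were a pseudocount of 0.1 or 5, centring, scaling to a sum of 1000000, a fold of 2, and a floor of 10 FPKM or none.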

Additional observations from a re-analysis of the deposited data

How the results depend on the processing

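Over the alternatives run, 100 of 108 log2 fold changes of the described genes kept their side of the 1.5-fold bound, 8 crossed it, and none past the bound changed sign. Those that crossed were of SELP, EMCN and ICAM2. The 108 include those of VCAM1, which was not measured and whose fold changes the added pseudocount kept short of the bound. With a pseudocount of 0.1, 2 genes were lower in CD105high than in CD105neg and 2 lower than in CD105low, as SELP joined ICAM2, and 10 genes of the related lists, in place of 6, were lower. With a pseudocount of 5, none was lower in CD105high than in CD105low, and 7 list genes were higher, in place of 11, and 2 lower. Centring, and scaling to the same sum, each gave 1 higher and 0 lower for CD105high against CD105low, and scaling gave 17 list genes higher and 1 described gene, ICAM2, in falling order. At a fold of 2, for CD105low against CD105neg 1 gene was higher and 0 lower, 0 were lower in CD105high than in CD105low, and 5 list genes were higher and 2 lower. With a floor of 10 FPKM, 1 described gene fell in order, and 7 list genes were higher and 2 lower. Of the counts of single lists, 77 stayed within 1.5 times and 35 did not. No paired analysis was possible because each group holds 1 library, and for the same reason no library could be left out. The number of reads behind a value is unknown, which limits VCAM1, ICAM1 and every gene near 1 FPKM most.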
